A study of Mus musculus with 28 samples.

Results

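The genes examined were 8 transcription factors of the macrophage lineage: Spi1, Cebpa, Cebpb, Cebpd, Maf, Runx1, Mef2a and Mef2c. They were taken by name from the 54532 genes of the count table, and all 8 were found. Their levels were followed in murine bone marrow-derived macrophages (BMDMs) exposed to von Willebrand factor (VWF), to bacterial lipopolysaccharide (LPS) or to neither.

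Spi1 encodes PU.1, an ETS family factor that opens macrophage enhancers and sets up the myeloid programme together with C/EBP proteins. The C/EBP family binds DNA as basic leucine zipper dimers, and its members share one motif while differing in use: C/EBPα, from Cebpa, drives myeloid commitment and restrains proliferation, whereas C/EBPβ and C/EBPδ, from Cebpb and Cebpd, act in inflammatory gene induction. RUNX1 works with its partner CBFβ upstream of PU.1 during blood formation, c-MAF acts in mature macrophages, and the MADS box factors MEF2A and MEF2C are held in check by class IIa histone deacetylases.

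RNA was sequenced from 28 cultures, with 5 Control, 5 VWF and 4 LPS cultures harvested at each of 3.5 h and 16 h. Control cultures received PBS, VWF cultures received human plasma-derived VWF at 10 µg/ml, and LPS cultures received LPS at 100 ng/ml. The cells were grown with M-CSF from the marrow of C57/B6JB mice aged 8 to 12 weeks, and the medium of all groups held 1 mM CaCl2. The labels call the replicates biological, but the number of mice behind them is not stated, so that p-values measure the spread between these cultures. A change in a bulk culture can come from fewer cells of a type or from less RNA per cell, which cannot be told apart here.

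Total counts lay between 41131209 and 77699206 per culture. All 8 macrophage markers examined, among them Adgre1, Csf1r and Cd68, reached 10 TPM in at least 1 culture of every group. TPM is a count scaled for exon length and for depth. The mean of Mertk was 8.25 TPM in VWF and 61.5 TPM in Control cultures at 3.5 h. Every other group mean of these markers was above 10 TPM. Most markers of other lineages were near 0, although in single cultures the summed markers reached 146 TPM for fibroblasts, 22.2 TPM for neutrophils and 21.2 TPM for B cells; their part in the results was not tested. In each 16 h group the culture that correlated least with the others was set apart: Control 16 h replicate 5, VWF 16 h replicate 4 and LPS 16 h replicate 4. Their median correlations with their groups were 0.911, 0.975 and 0.941, against 0.973 to 0.992 in the other 25 cultures. VWF 16 h replicate 4 thus lay within the range of the others, and Control 3.5 h replicate 4, at 0.973, was kept. These 3 cultures also had the lowest long-gene score, the median deviation of genes over 6000 bases from their group minus that of genes under 2000 bases, at −0.59, −0.48 and −0.57 on the log2 scale, against −0.33 to 0.56 in the other 25. The summed macrophage markers of Control 16 h replicate 5 were 7670 TPM, against a group median of 33251. Results that change without these cultures are given with and without them.

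Levels below are CPM, counts scaled for depth and normalised by the trimmed mean of M-values (TMM), and fold changes are log2 values with standard errors (SE) from edgeR's quasi-likelihood test. A gene was tested where at least 1 culture of the comparison reached 10 TPM. It was called where its Benjamini-Hochberg adjusted p was under 0.05 and its log2 fold change was at least 1 in size, and "adjusted p alone" drops the fold condition. A factor that reached 10 TPM in only one of the groups compared passed through its higher group, so that the filter itself favoured its direction. Such factors made 11 of the calls between groups and are marked as they come; with no filter 10 of these 11 calls were made as well, all but that of Mef2c with VWF at 16 h (−0.94). The VWF and LPS comparisons at a given time share their control cultures. Groups without overlap in CPM were common: 35.5% of all tested genes for VWF against control at 3.5 h, and 24.6% at 16 h. For LPS against control the shares were 56.3% and 47.9%, and between the agonists 39.9% and 51.6%. Statements below that groups did not overlap stand beside these shares, which are for all cultures. Without the 3 cultures set apart, more genes had an unadjusted p under 0.05 in edgeR's test. For VWF against control at 16 h they numbered 4220 of 7682, beside 2849 of 7798 with all cultures. For LPS against control at 16 h they numbered 6034 of 7861, beside 4698 of 7994.

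VWF at 3.5 h moved the C/EBP genes in opposite directions, with Cebpa lower and Cebpb and Cebpd higher, and lowered both MEF2 genes. That made 5 of 8 factors called, 2 higher and 3 lower, beside 14.7% of all tested genes, and 7 of 8 by adjusted p alone beside 43.6%. Mef2c was among them through control cultures alone; of the 7 factors at 10 TPM in both groups, 4 were called, beside 10.8% of such genes. By 16 h, Mef2c was the single factor called against control, beside 8.71% of all genes, and again passed the filter through controls alone. That number was 0 without the 3 cultures set apart, 0 without Control 16 h replicate 2 or 3 or VWF 16 h replicate 2 or 4, and 2 without VWF 16 h replicate 3. With no filter, the single factor called was Cebpd, which was higher (1.02), in place of Mef2c. The same held with edgeR's own filter, filterByExpr (1.01), and without VWF 16 h replicate 1 (1.01). By adjusted p alone 4 of 8 passed, beside 27.7%, but 2 without any of Control 16 h replicates 1 to 4 or VWF 16 h replicates 1, 2 or 5. LPS at 3.5 h gave 5 calls, 1 higher and 4 lower, beside 24.5%, and 8 of 8 by adjusted p alone beside 65.7%. Of these, Runx1 and Mef2c passed through controls alone, and 3 of the other 6 were called, beside 17.6% of genes at 10 TPM in both groups. LPS at 16 h gave 4 calls, 1 higher and 3 lower, beside 27.6%, and again 8 of 8 by adjusted p alone, beside 53.7%. There Cebpd, Runx1, Mef2a and Mef2c passed through controls alone, and 2 of the other 4, Cebpa and Cebpb, were called, beside 19.2%. With no filter Runx1 did not pass by adjusted p alone (adjusted p = 0.34). The median fold change of the 8 factors was −0.39 for VWF and −0.78 for LPS at 3.5 h, where the medians of all tested genes were 0.00 and −0.02, and −0.02 and −0.45 at 16 h, where they were −0.03 for both.

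Direct comparison of the agonists separated 2 of 7 tested factors at 3.5 h, Cebpa and Runx1, both higher with VWF, beside 11.4% of all genes. Runx1 was at 10 TPM in VWF cultures alone, and 1 of the other 6 was called, beside 9.08% of genes at 10 TPM in both groups. By adjusted p alone 4 of 7 passed, beside 50.2%. At 16 h, 4 of 7 were called, with Cebpa, Cebpd and Mef2a higher and Cebpb lower in VWF than in LPS cultures, beside 25.5%, and 5 of 7 passed by adjusted p alone, beside 60.5%. Cebpd, Runx1 and Mef2a were at 10 TPM in VWF cultures alone, and 2 of the other 4, Cebpa and Cebpb, were called, beside 18.1%. Mef2c was under the expression filter in both of these comparisons, and its CPM ranges overlapped between the agonists at 3.5 h but not at 16 h.

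**Figure D1:**
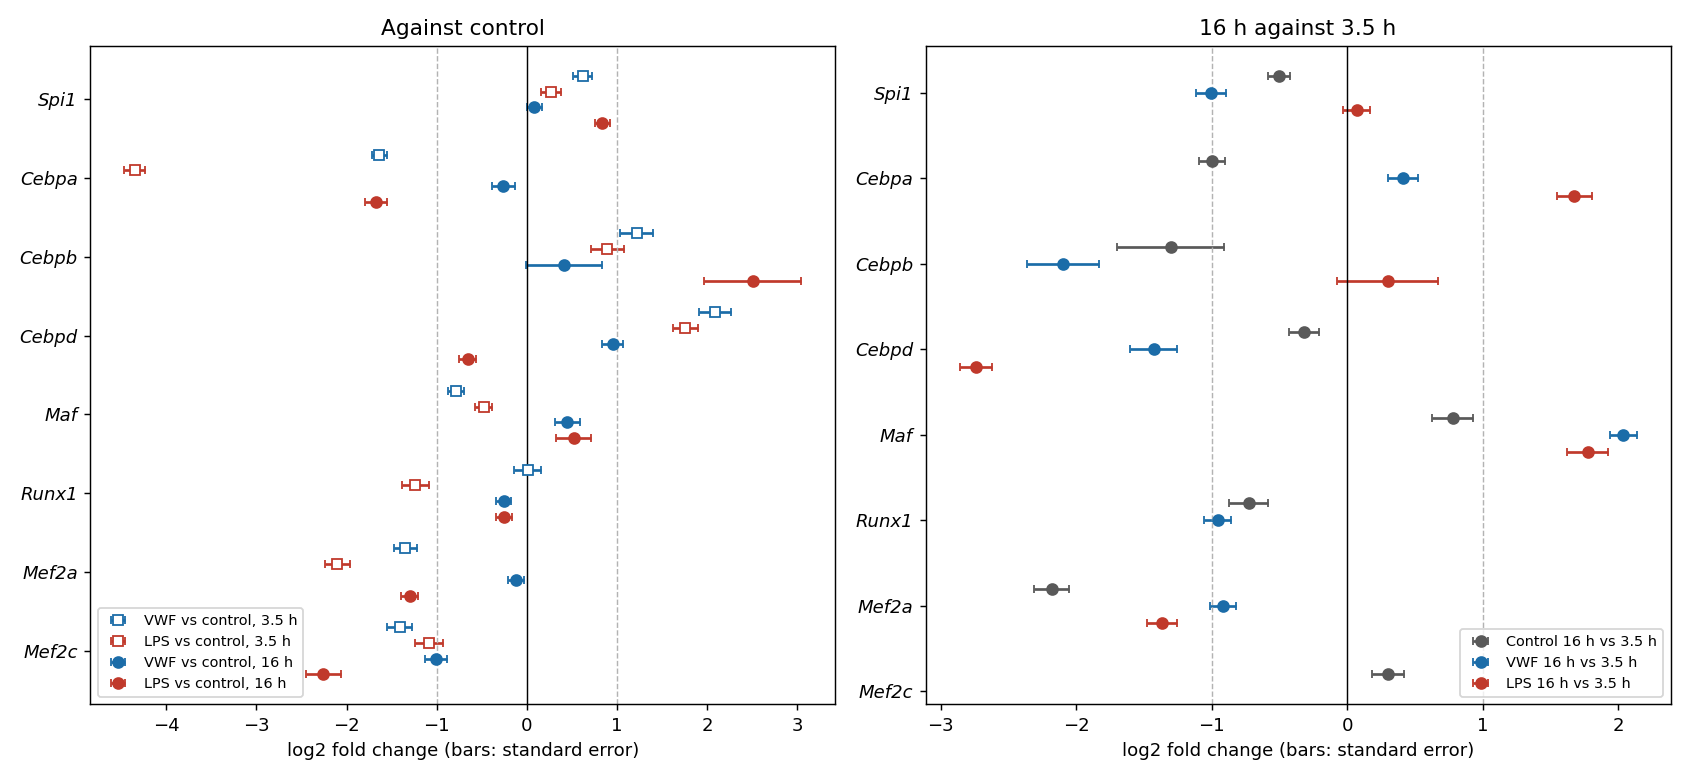
Log2 fold changes of the 8 factors, with bars for the standard error. The left panel plots VWF (blue) and LPS (red) against control at 3.5 h (open squares) and 16 h (filled circles), the right panel 16 h against 3.5 h within Control (grey), VWF and LPS cultures, and dashed lines mark a log2 fold change of −1 and 1. Cebpa at 3.5 h lies farthest to the left, at −1.64 with VWF and −4.35 with LPS; factors under the expression filter have no point.

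PU.1 mRNA had the smallest span of the 8 factors, 1.09 on the log2 scale between its highest and lowest group mean, against 4.37 for Cebpa. Spi1 (ENSMUSG00000002111) lies on chromosome 2 of GRCm38, from 91082390 to 91115756 on the plus strand. At 3.5 h the Control cultures held 698, 780, 804, 648 and 750 CPM (replicates 1 to 5), the VWF cultures 891, 1140, 1253, 1238 and 1029 CPM, and the LPS cultures 756, 826, 940.4 and 979 CPM. Every VWF culture lay above every Control culture, whereas the LPS range overlapped that of the controls. The log2 fold change was 0.62 (SE 0.11, adjusted p = 0.000491) with VWF and 0.27 (SE 0.11, adjusted p = 0.0462) with LPS. The LPS value no longer passed without Control 3.5 h replicate 1, 2 or 4 or LPS 3.5 h replicate 2, 3 or 4, where the adjusted p was 0.0534 to 0.136. Under scaling by library size alone the LPS value at 3.5 h turned to −0.25, and per length the LPS mean was 663 ± 66.9 TPM (SD, n = 4) beside 879 ± 41.8 TPM in controls (SD, n = 5). By 16 h the order had changed: LPS cultures held 865 to 949 CPM, VWF cultures 504 to 649 and Control cultures 504 to 529. Spi1 was 0.84 higher with LPS (SE 0.08, adjusted p = 2.05e-05), while with VWF the difference was 0.08 (SE 0.08, adjusted p = 0.53). Per length the LPS cultures at 16 h, at 592 to 761 TPM, overlapped the Control cultures, at 407 to 609.5 TPM. Scaling by library size alone shifted the median of all genes by −0.54 for LPS against control at 16 h. Between the agonists Spi1 was 0.36 higher with VWF at 3.5 h (SE 0.12, adjusted p = 0.0299) and differed by −0.71 at 16 h, lower with VWF (SE 0.09, adjusted p = 0.000111). The difference at 3.5 h did not pass without LPS 3.5 h replicate 1 or 2 or VWF 3.5 h replicate 2, 3 or 4 (adjusted p = 0.0572 to 0.0828).

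Known PU.1 target genes were followed beside Spi1. Of 12, all at 10 TPM in both groups of each comparison with control, VWF raised 3 and lowered 0 at 3.5 h, where 14.7% of all genes were called, and raised 4 and lowered 1 at 16 h, where 8.71% were. LPS raised 4 and lowered 0 at 3.5 h, beside 24.5%, and raised 5 and lowered 1 at 16 h, beside 27.6%. Without the 3 cultures set apart LPS raised 6 at 16 h, with Mpeg1 added. Of all genes at 10 TPM in both groups, 10.8% were called with VWF at 3.5 h and 5.8% at 16 h. With LPS those shares were 17.6% and 19.2%. Msr1, a scavenger receptor, was called higher in all 4 comparisons, by 1.53 to 2.13. Fcgr1, a high-affinity IgG receptor, rose by 2.89 with VWF and 4.48 with LPS at 16 h. Cd14, the co-receptor that hands LPS to TLR4, rose at 3.5 h from 498 ± 62.5 CPM in Control (SD, n = 5) to 2585 ± 419 in VWF (SD, n = 5) and 1916 ± 230.3 in LPS cultures (SD, n = 4). At 16 h Cd14 rose with LPS by 1.60 and fell with VWF by 1.63. Some of these genes, Cd14, Csf1r and Fcgr1 among them, also serve as macrophage markers. Csf1r, the M-CSF receptor, was not called: its values were 0.06 (adjusted p = 0.80) with VWF and −0.58 (adjusted p = 0.00784) with LPS at 3.5 h, and 0.71 (adjusted p = 0.0177) and −0.12 (adjusted p = 0.71) at 16 h.

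**Figure D2:**
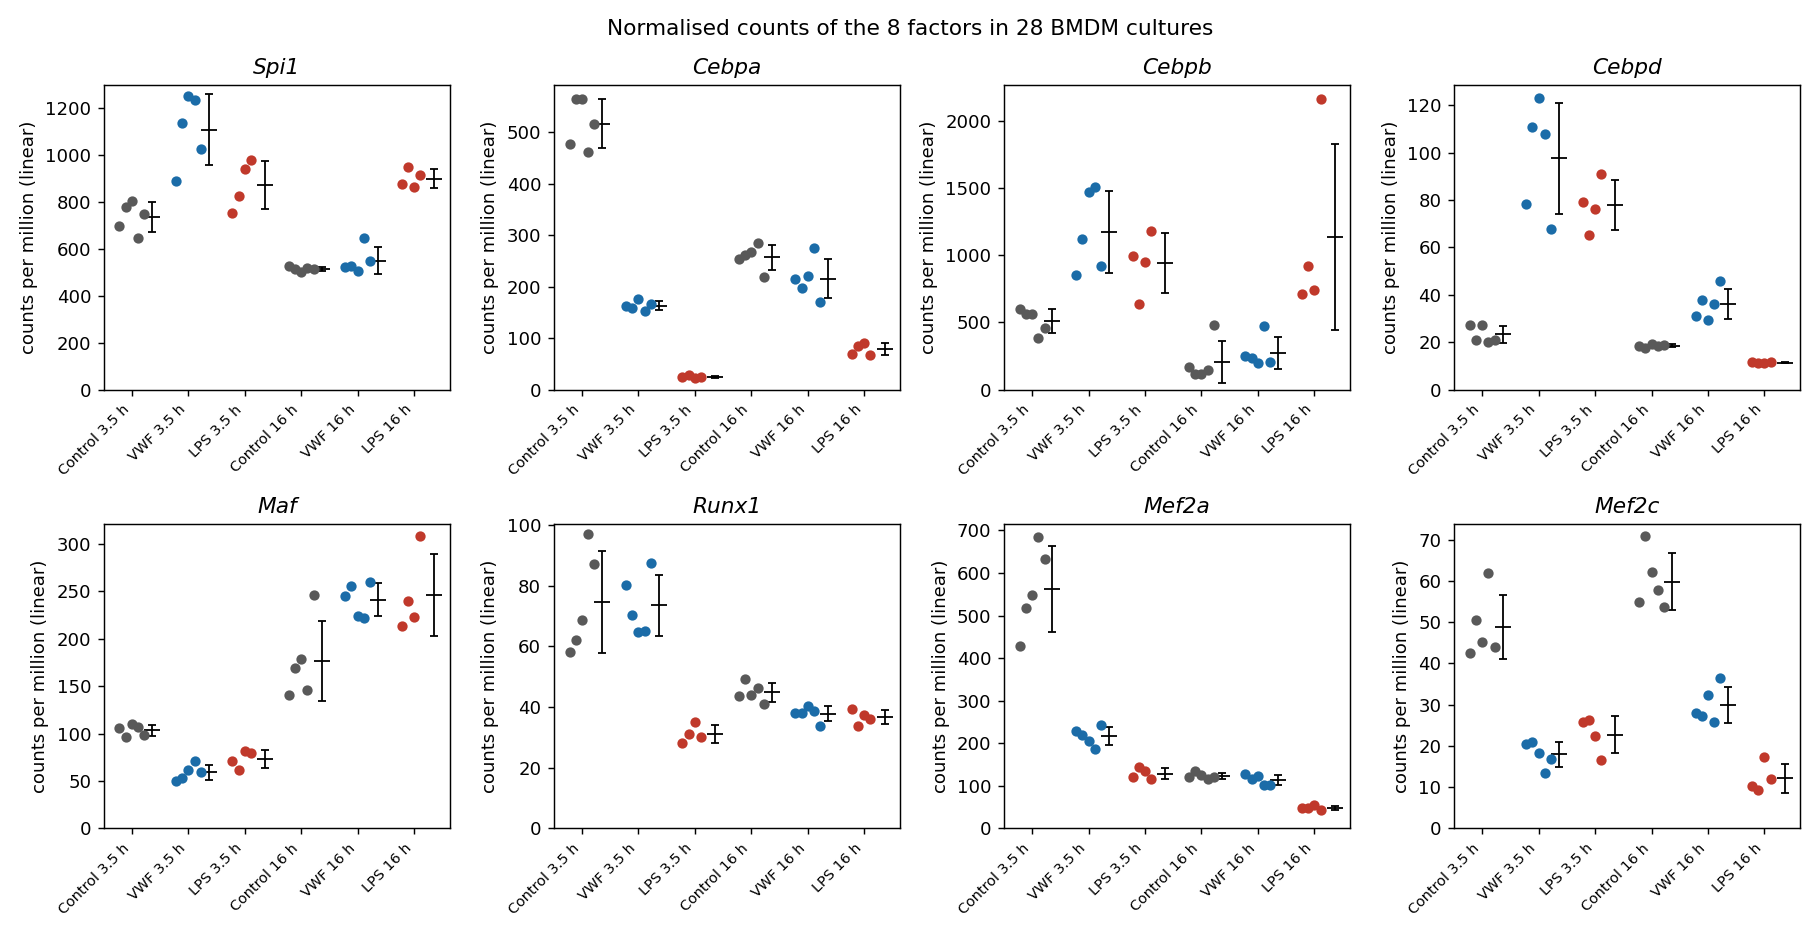
TMM-normalised CPM of each factor in every culture, on linear axes from 0, by group (Control grey, VWF blue, LPS red). Points are cultures, and the black mark beside each group is its mean with the SD. Cebpa is lowest in LPS cultures at 3.5 h (22.8 to 27.9 CPM) and Cebpd in LPS cultures at 16 h (11.1 to 11.8 CPM), and single cultures stand above their group for Cebpb at 16 h.

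Cebpa showed the largest decrease of the 8 factors at 3.5 h, with both agonists. The gene (ENSMUSG00000034957) is on chromosome 7, from 35119293 to 35121928 on the plus strand. Control cultures at 3.5 h held 476, 564, 565, 462 and 516 CPM. VWF cultures held 162, 159, 176, 153 and 166 CPM, and LPS cultures 24.2, 27.9, 22.8 and 25.1 CPM. The 3 groups did not overlap, and VWF cultures lay between the others. Cebpa fell by 1.64 on the log2 scale with VWF (SE 0.08, adjusted p = 2.37e-08), which is 3.11-fold, and by 4.35 with LPS (SE 0.12, adjusted p = 2.50e-10), which is 20.4-fold. The difference between the agonists was 2.73 (SE 0.09, adjusted p = 2.99e-08).

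At 16 h the VWF and Control ranges of Cebpa overlapped. Control cultures held 253, 261, 267, 285 and 218 CPM, VWF cultures 215, 198, 220.4, 275 and 170.0 CPM, and LPS cultures 70.1, 85.6, 90.7 and 67.4 CPM. The VWF value was −0.26 (SE 0.13, adjusted p = 0.18) and the LPS value −1.67 (SE 0.13, adjusted p = 2.92e-06). Without the 3 cultures set apart above, the VWF value was −0.40 (adjusted p = 0.00316), still under the fold threshold, and without VWF 16 h replicate 4 alone it was −0.35 (adjusted p = 0.0473). The change in effect between the times was 1.40 for VWF (SE 0.15, adjusted p = 3.42e-07) and 2.69 for LPS (SE 0.15, adjusted p = 4.57e-10). The controls moved too: their value from 3.5 h to 16 h was −0.9989 (SE 0.10, adjusted p = 3.49e-05), just inside the fold threshold, and it was past it in 12 alternative fits, among them those without Control 3.5 h replicate 1, 4 or 5 or Control 16 h replicate 2, 3 or 4 (−1.01 to −1.05). From 3.5 h to 16 h Cebpa rose by 1.68 in LPS cultures (SE 0.13, adjusted p = 6.26e-06) and was 0.41 higher in VWF cultures (SE 0.11, adjusted p = 0.00713).

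Cebpb moved the other way at 3.5 h. The gene (ENSMUSG00000056501) lies on chromosome 2 from 167688915 to 167690418 on the plus strand, and 20.7% of its exon length overlaps Tmem189 on the opposite strand. The strand setting of the counting is not given, so reads in that overlap cannot be assigned. Tmem189 itself had 295 ± 20.9 CPM in Control, 126 ± 8.97 in VWF and 73.0 ± 4.17 in LPS cultures at 3.5 h (SD, n = 5, 5 and 4). At 16 h it had 213 ± 13.1, 125 ± 9.25 and 217 ± 21.5 CPM (SD, n = 5, 5 and 4), and its part in the Cebpb counts was not tested. Cebpb at 3.5 h was 599, 563, 561, 383 and 455 CPM in Control cultures, 849, 1122, 1468, 1503 and 921 CPM in VWF cultures, and 990.2, 639, 951 and 1182 CPM in LPS cultures. In CPM all treated cultures lay above all controls, and the agonists overlapped each other. Per length the LPS cultures, at 930 to 1548 TPM, overlapped the Control cultures, at 918 to 1257 TPM. The log2 fold change was 1.22 with VWF (SE 0.19, adjusted p = 0.000227) and 0.89 with LPS (SE 0.19, adjusted p = 0.00146), and the difference between agonists was 0.34 (SE 0.21, adjusted p = 0.20). The LPS value was 1.04, past the fold threshold, without LPS 3.5 h replicate 2, and 0.38 (adjusted p = 0.068) when scaled by library size alone; the VWF value on that scale was 0.9957.

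At 16 h Cebpb was called higher in LPS cultures than in controls, while the VWF value depended on single cultures. The Control cultures held 165, 116, 117, 146 and 481 CPM, the VWF cultures 250.1, 237, 196, 476 and 204 CPM, and the LPS cultures 711, 922, 744 and 2160 CPM. Each of the 3 high values, Control replicate 5, VWF replicate 4 and LPS replicate 4, came from the culture set apart above by its correlation and long-gene score. The part of that score in these values was not tested. Cebpb was 2.51 higher with LPS than in controls (SE 0.54, adjusted p = 0.00323) and 0.41 higher with VWF (SE 0.42, adjusted p = 0.55). The VWF value was 0.13 (adjusted p = 0.86) without VWF replicate 4 and 0.99 (adjusted p = 0.0105) without Control replicate 5. Each of the 3 cultures set apart had the highest Cebpb of its group, so that leaving them out narrowed the groups by itself. Without the 3 cultures the group means were 136 ± 23.9 CPM (SD, n = 4) in Control, 222 ± 25.8 (SD, n = 4) in VWF and 792 ± 114 (SD, n = 3) in LPS cultures, with no overlap between them. The LPS value was then 2.58 (SE 0.15, adjusted p = 2.89e-07), and the VWF value 0.71 (SE 0.13, adjusted p = 0.00123), past the adjusted p alone but under the fold threshold. The difference of VWF from LPS cultures was −2.05 with all cultures (SE 0.39, adjusted p = 0.00124) and −1.82 without the 3 (SE 0.12, adjusted p = 2.76e-06).

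**Figure D3:**
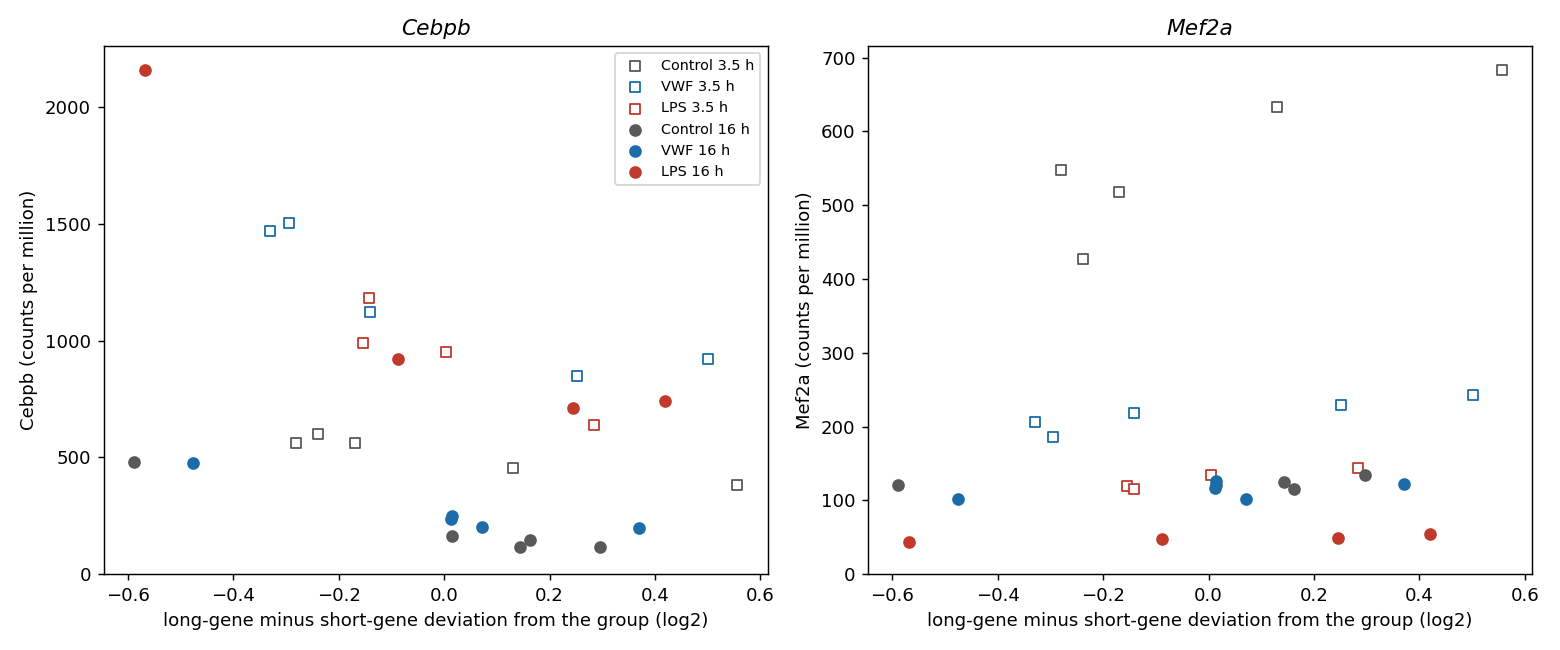
Cebpb (left) and Mef2a (right) in CPM against the long-gene minus short-gene deviation of each culture from its group, on the log2 scale, with open squares for 3.5 h and filled circles for 16 h (Control grey, VWF blue, LPS red). The 3 filled points at −0.59, −0.57 and −0.48 are Control replicate 5, LPS replicate 4 and VWF replicate 4 at 16 h, and each has the highest Cebpb of its group (481, 2160 and 476 CPM).

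Over time Cebpb fell by 2.10 in VWF cultures (SE 0.27, adjusted p = 3.35e-05), or by 2.39 without VWF 16 h replicate 4 (adjusted p = 2.07e-06), and by 1.30 in controls (SE 0.39, adjusted p = 0.0230). The control change was no longer called without Control 16 h replicate 1, 3 or 4 (adjusted p = 0.0531, 0.0509 and 0.0536), and was −1.91 without replicate 5. In LPS cultures the change was 0.30 (SE 0.37, adjusted p = 0.51) and turned to −0.22 without LPS 16 h replicate 4. The LPS effect on Cebpb was 1.62 larger at 16 h than at 3.5 h (SE 0.59, adjusted p = 0.0310), a call kept without all 3 cultures (1.70, adjusted p = 4.15e-05). It was lost without LPS 16 h replicate 4 (1.08, adjusted p = 0.0882), and also without Control 16 h replicate 1, 2, 3 or 4 or LPS 3.5 h replicate 2 or 3, where the adjusted p was 0.0501 to 0.0605.

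Cebpd was induced early by both agonists and then parted. The gene (ENSMUSG00000071637) lies on chromosome 16, from 15887286 to 15891031 on the plus strand, and shares 15.0% of its exon length with Spidr on the opposite strand, whose group means were 7.26 to 14.7 CPM. At 3.5 h the Control cultures held 27.5, 20.8, 27.3, 20.04 and 20.8 CPM, the VWF cultures 78.5, 111, 123, 108 and 67.8 CPM, and the LPS cultures 79.3, 65.3, 76.2 and 90.8 CPM. Treated and control cultures did not overlap, and the agonists did. Cebpd rose by 2.09 with VWF (SE 0.18, adjusted p = 1.88e-06) and 1.76 with LPS (SE 0.14, adjusted p = 7.12e-07), and the difference of 0.35 did not pass (SE 0.17, adjusted p = 0.11).

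By 16 h the 3 groups of Cebpd did not overlap, with VWF above and LPS below Control. VWF cultures held 31.2, 37.9, 29.6, 35.9 and 45.7 CPM, Control cultures 18.3, 17.7, 19.2, 18.5 and 18.9 CPM, and LPS cultures 11.8, 11.1, 11.2 and 11.8 CPM. The values were 0.95 for VWF (SE 0.11, adjusted p = 0.000110) and −0.66 for LPS (SE 0.09, adjusted p = 0.000199), both under the fold threshold. The VWF value passed it without VWF 16 h replicate 1 or 3 (1.01 and 1.02), with no filter (1.02) and with filterByExpr (1.01). The LPS value was −1.20 when scaled by library size alone. VWF cultures exceeded LPS cultures by 1.66 (SE 0.14, adjusted p = 3.93e-06). No LPS culture at 16 h reached 10 TPM of Cebpd (5.47 to 7.08), so that its tests against LPS at that time passed the filter through the other group. Between the times Cebpd fell by 2.74 in LPS cultures (SE 0.12, adjusted p = 4.71e-07) and by 1.43 in VWF cultures (SE 0.18, adjusted p = 2.53e-05), and was −0.32 in controls (SE 0.11, adjusted p = 0.0401; 0.0662 to 0.0943 without Control 3.5 h replicate 1 or 3 or Control 16 h replicate 1, 2, 3 or 4). The effect changed by −1.12 for VWF (SE 0.21, adjusted p = 0.000298) and by −2.41 for LPS (SE 0.16, adjusted p = 2.60e-09).

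The balance of Cebpb to Cebpa was taken within each culture as the ratio of their TPM, which does not depend on scaling between cultures. At 3.5 h the ratio was 1.45 to 2.20 in Control cultures, 9.17 to 17.3 in VWF cultures and 40.1 to 82.7 in LPS cultures. On the log2 scale the means were 0.78 ± 0.23, 3.62 ± 0.39 and 6.01 ± 0.47 (SD, n = 5, 5 and 4), so the groups stood apart by more than their spread. The difference from Control was 2.83 for VWF and 5.23 for LPS, and VWF was −2.40 relative to LPS, each with adjusted p = 0.0190 in a two-sided exact permutation test over 6 comparisons. At 16 h the log2 ratio was 0.25 ± 0.98 in Control, 1.08 ± 0.34 in VWF and 4.51 ± 0.88 in LPS cultures (SD, n = 5, 5 and 4). LPS differed from Control by 4.26, and VWF from LPS by −3.43, both at adjusted p = 0.0190, while VWF and Control differed by 0.83 with adjusted p = 0.12 in the same exact test. The Control mean held replicate 5 at 1.95, where the others lay from −0.38 to 0.20, and without it the VWF difference was 1.26 with adjusted p = 0.0190 (exact permutation test). Without all 3 cultures the LPS difference was 4.25 and that between agonists −3.13, both at adjusted p = 0.0571 in the exact test, the smallest p it allows for 4 against 3 cultures. The smallest p the exact test allows is 0.00794 for 5 against 5 cultures and 0.0159 for 5 against 4.

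**Figure D4:**
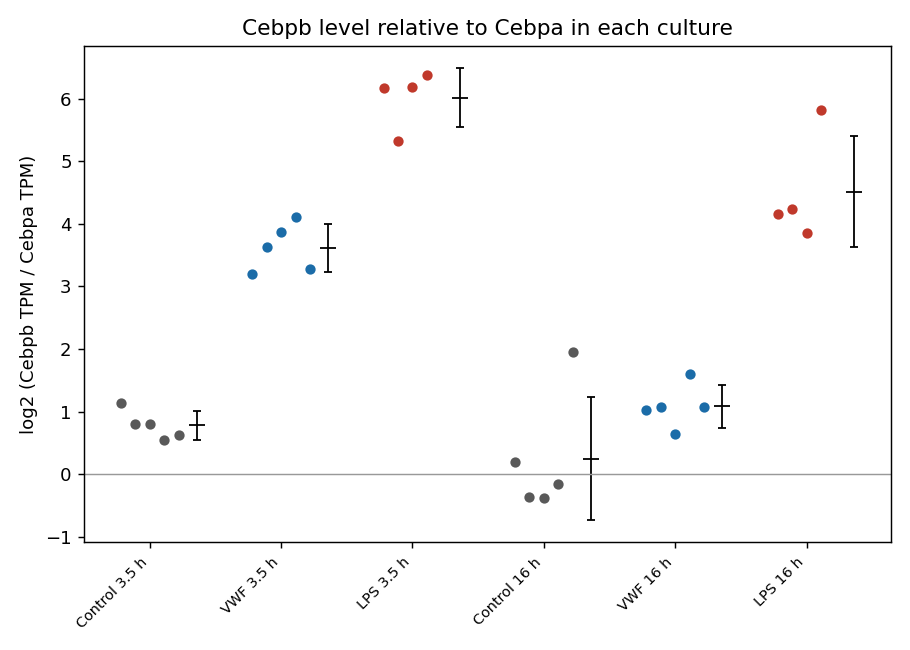
Log2 ratio of Cebpb TPM to Cebpa TPM in each culture (points) with group mean and SD (black marks), by group. At 3.5 h the Control, VWF and LPS cultures form separate bands at means of 0.78, 3.62 and 6.01; at 16 h VWF cultures lie at 0.64 to 1.60, and Control replicate 5 stands at 1.95 above the other controls.

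The promoters of this pair are shown because their transcripts moved in opposite directions. RefSeq windows of GRCm38.p6 reach from 250 bases before to 50 after the start, and 5 of the 8 factors had one. Both strands were searched for the letters of C/EBP (TTGCNNAA), PU.1 (GAGGAAGT), CRE (TGACGTCA), AP-1 (TGANTCA), STAT (TTCCNGGAA), NF-kappaB (GGGANTTTC), RUNX (TGTGGT) and MEF2 (CTANNNNTA) motifs, and matches are in capitals, with positions counted from +1 at the start and no position 0. Of 32851 promoter windows of this length, 10.8% held the C/EBP letters, 3.20% PU.1, 1.79% CRE, 7.81% AP-1, 1.15% STAT, 1.11% NF-kappaB, 16.8% RUNX and 21.0% MEF2. The Cebpa window, chr7:35119043-35119342 on the plus strand, held the MEF2 letters at −164 to −156, as CTAGCACTA. N stands for any base, so that a match is one of letters only, and binding was not tested. The Cebpb window, chr2:167688665-167688964 on the plus strand, held none of the 8 and was 80.7% G and C, against a median of 52.7% over all windows.
Cebpa: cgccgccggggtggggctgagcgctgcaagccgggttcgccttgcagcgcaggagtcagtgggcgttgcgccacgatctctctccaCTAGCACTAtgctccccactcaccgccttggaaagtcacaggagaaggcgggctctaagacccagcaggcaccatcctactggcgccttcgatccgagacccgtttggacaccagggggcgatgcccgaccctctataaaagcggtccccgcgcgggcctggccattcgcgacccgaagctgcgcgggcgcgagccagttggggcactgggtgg
Cebpb: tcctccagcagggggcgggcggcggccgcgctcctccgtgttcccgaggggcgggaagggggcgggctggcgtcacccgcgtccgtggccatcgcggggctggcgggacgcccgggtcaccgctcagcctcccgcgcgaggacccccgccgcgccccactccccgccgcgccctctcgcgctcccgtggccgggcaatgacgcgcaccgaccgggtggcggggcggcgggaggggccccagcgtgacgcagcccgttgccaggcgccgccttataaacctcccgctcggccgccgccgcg

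A list of C/EBP relatives and regulators was read beside these genes, with Cebpz on it by name alone. Of its 7 genes, 5 were tested against control. At 3.5 h VWF moved none of them past the call (14.7% of all genes), and LPS lowered 3 (24.5%): Trib1, which targets C/EBPα for degradation, by 2.93, Cebpz by 1.09 and Trib3 by 1.07. All 3 were at 10 TPM in controls alone. At 16 h LPS raised Trib1 by 1.01 (0.99, not called, without the 3 cultures set apart) and Ddit3, a stress-induced C/EBP relative, by 1.54, and lowered Cebpz, which passed through controls alone, by 1.32 (27.6% of all genes called), whereas VWF lowered Trib3 by 1.30 (8.71%). The list's median was −0.17 with VWF and −1.07 with LPS at 3.5 h, and −0.24 and 0.70 at 16 h. Known target genes of C/EBPβ and C/EBPδ numbered 11, and every one tested was called higher against control: 8 with VWF and 9 with LPS at 3.5 h, 5 and 10 at 16 h. Most passed the filter through treated cultures alone, 5 and 6 of them at 3.5 h and 3 and 8 at 16 h, so these counts had to be high. Saa3, an acute phase gene, reached 5167 ± 1738 CPM in VWF (SD, n = 5) and 20390 ± 11120 CPM in LPS cultures (SD, n = 4) at 16 h, from 11.9 ± 14.6 in controls (SD, n = 5). Without the 3 cultures set apart it was 4758 ± 1706 CPM in VWF, 14950 ± 2794 in LPS and 5.42 ± 2.25 in Control cultures (SD, n = 4, 3 and 4). The order was the other way at 3.5 h, with 1030.0 ± 293 CPM in VWF and 226 ± 71.8 in LPS cultures (SD, n = 5 and 4). Lcn2, which binds bacterial siderophores, reached 84.5 ± 20.5 CPM in VWF and 559 ± 72.9 in LPS cultures at 16 h (SD, n = 5 and 4). Between the agonists at 16 h, 9 of 10 tested targets were called lower with VWF, beside 25.5% of all genes, and 8 without the 3 cultures, where Arg1 did not pass (adjusted p = 0.0509). Of the 9, 5 were at 10 TPM in LPS cultures alone, Nos2 among them, and 4 of the 5 targets at 10 TPM with both agonists were called, beside 18.1%. Nos2, the inducible nitric oxide synthase, had 0.27 ± 0.16 CPM in VWF and 2119 ± 792 in LPS cultures (SD, n = 5 and 4) at that time.

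Runx1 separated LPS from VWF at 3.5 h. The gene (ENSMUSG00000022952) is on chromosome 16, from 92601466 to 92826149 on the minus strand. Control cultures at 3.5 h held 58.1, 62.2, 68.8, 97.1 and 87.2 CPM, the VWF cultures 80.3, 70.4, 64.7, 65.0 and 87.6 CPM, and the LPS cultures 28.1, 31.2, 34.9 and 30.3 CPM. VWF and Control overlapped throughout, and all LPS cultures lay below both. Runx1 fell by 1.24 with LPS (SE 0.15, adjusted p = 2.58e-05), and the VWF value was 0.01 (SE 0.15, adjusted p = 0.97). Scaling by library size alone turned that VWF value to −0.21. The agonists differed by 1.26 (SE 0.12, adjusted p = 9.97e-06). At 4.72 to 5.81 TPM no LPS culture reached the filter, so that Runx1 was tested through the Control or VWF cultures, where it was higher; with no filter the values were −1.20 against control and 1.21 between the agonists. The highest Control culture, replicate 4, also had the highest long-gene score, 0.56; its part was not tested.

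At 16 h Runx1 lay at 41.1 to 49.1 CPM in Control, 33.6 to 40.3 in VWF and 33.9 to 39.5 in LPS cultures, so that both treated groups lay just below the controls. The values against control were −0.26 for VWF (SE 0.08, adjusted p = 0.0363) and −0.25 for LPS (SE 0.09, adjusted p = 0.0394). Neither held in most fits with a culture left out: the VWF value failed the test in 8 of 10 such fits, all but those without Control replicate 5 or VWF replicate 3 (adjusted p = 0.0618 to 0.0999), and the LPS value in 7 of 9, all but those without Control replicate 5 or LPS replicate 1 (0.0582 to 0.122). Against LPS at 16 h Runx1 passed the filter through controls alone. With no filter that LPS value was −0.16 and did not pass (adjusted p = 0.34). The LPS effect changed by 1.01 between the times (SE 0.19, adjusted p = 0.000331), a value at the fold threshold that was under it in 13 alternative fits. These included the fits without Control 3.5 h replicate 4 or 5, Control 16 h replicate 1, 3 or 5, LPS 3.5 h replicate 1 or LPS 16 h replicate 1, at 0.89 to 0.9999, and the fit without the 3 cultures set apart, at 0.99. Cbfb, whose protein stabilises RUNX1 on DNA, was 0.10 with VWF (adjusted p = 0.32) and −0.01 with LPS (adjusted p = 0.89) at 3.5 h, and fell by 1.07 with LPS at 16 h (SE 0.09, adjusted p = 6.60e-06).

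In CPM Maf was below control at 3.5 h and above it at 16 h with both agonists, by less than the fold threshold. The gene (ENSMUSG00000055435) is on chromosome 8, from 115682942 to 115707794 on the minus strand. In Control cultures at 3.5 h it was 105, 96.7, 111, 107 and 98.3 CPM, in VWF cultures 50.1, 53.4, 62.0, 70.5 and 59.2 CPM, and in LPS cultures 71.3, 61.1, 81.2 and 79.6 CPM. Both treated groups lay below all controls. The values were −0.78 for VWF (SE 0.09, adjusted p = 2.51e-05) and −0.48 for LPS (SE 0.10, adjusted p = 0.00121), neither past the fold threshold, and −1.01 and −1.0019 when scaled by library size alone. At 16 h the Control cultures held 141, 169, 178, 146 and 246 CPM, the VWF cultures 245, 255, 224, 222 and 259 CPM, and the LPS cultures 213, 240, 223 and 308 CPM, and the highest Control and the highest LPS value came from the cultures set apart above. The differences were 0.45 for VWF (SE 0.14, adjusted p = 0.0362) and 0.52 for LPS (SE 0.19, adjusted p = 0.0441), the LPS value being −0.0085 when scaled by library size alone. Per length the LPS mean at 16 h was 61.4 ± 3.92 TPM (SD, n = 4) beside 61.0 ± 6.48 TPM in controls (SD, n = 5). With 1 culture left out the VWF value failed the test in 8 of 10 fits, all but those without Control replicate 5 or VWF replicate 4 (adjusted p = 0.0509 to 0.0883), and the LPS value in 7 of 9, all but those without Control replicate 5 or LPS replicate 1 (0.0540 to 0.113). Without the 3 cultures they were 0.64 (adjusted p = 9.11e-05) and 0.54 (adjusted p = 0.000417). Over time Maf rose by 2.04 in VWF cultures (SE 0.10, adjusted p = 1.62e-08) and 1.77 in LPS cultures (SE 0.15, adjusted p = 1.24e-05), and was 0.78 higher in controls (SE 0.15, adjusted p = 0.00225). The VWF effect thus changed by 1.25 (SE 0.18, adjusted p = 1.46e-05) and the LPS effect by 1.01 (SE 0.22, adjusted p = 0.00118), the latter under the fold threshold in 11 alternative fits. These included the fits without Control 3.5 h replicate 3 or 4, Control 16 h replicate 1, 2 or 4, LPS 3.5 h replicate 2 or LPS 16 h replicate 4, at 0.87 to 0.9983.

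Among the relatives of Maf, the small MAF gene Mafk rose by 2.17 with LPS at 3.5 h and was 0.19 with VWF (adjusted p = 0.18). Of 5 known targets of MAF family factors, VWF raised 1 of 5 tested at 3.5 h and 2 of 4 at 16 h (14.7% and 8.71% of all genes called), and LPS 1 of 5 and 2 of 5 (24.5% and 27.6%), with none lowered. Of genes at 10 TPM in both groups, 10.8% and 5.8% were called with VWF, and 17.6% and 19.2% with LPS. With LPS at 16 h Il10 passed the filter through LPS cultures alone. The gene raised at 3.5 h was Il10, an anti-inflammatory cytokine that is also on the list of C/EBP targets, by 3.80 with VWF and 6.47 with LPS. Adgre1, which encodes F4/80, rose by 1.80 with VWF and 1.11 with LPS at 16 h, and the complement gene C1qa by 1.49 with VWF.

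Mef2a was lower with both agonists at 3.5 h. The gene (ENSMUSG00000030557) is on chromosome 7, from 67231163 to 67372858 on the minus strand. Control cultures held 428, 518, 548, 684 and 634 CPM, VWF cultures 229, 219, 206, 187 and 243 CPM, and LPS cultures 120.2, 144, 135 and 115 CPM, with no overlap between the 3 groups. The highest Control value was again that of replicate 4. Mef2a fell by 1.35 with VWF (SE 0.13, adjusted p = 5.01e-06) and by 2.11 with LPS (SE 0.14, adjusted p = 1.73e-07), and the agonists differed by 0.78 (SE 0.10, adjusted p = 0.000134). In controls it fell by 2.18 from 3.5 h to 16 h (SE 0.13, adjusted p = 2.10e-06), so that Control cultures at 16 h, at 116 to 135 CPM, overlapped LPS cultures at 3.5 h. At 16 h VWF cultures lay at 103 to 127 CPM, a difference from Control of −0.12 (SE 0.09, adjusted p = 0.39). LPS cultures lay at 43.9 to 55.0 CPM, lower by 1.30 (SE 0.09, adjusted p = 2.47e-06), and at 5.22 to 8.89 TPM, all under the filter, which Mef2a passed through controls alone; with no filter the value was −1.21. The change in effect was 1.25 for VWF (SE 0.16, adjusted p = 3.55e-06) and 0.83 for LPS (SE 0.17, adjusted p = 0.000749).

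The Mef2a window, chr7:67372809-67373108 of GRCm38.p6 on the minus strand, is shown because it held the MEF2 letters at its own start, at −2 to 7 on one strand and −1 to 8 on the other, in capitals.
Mef2a: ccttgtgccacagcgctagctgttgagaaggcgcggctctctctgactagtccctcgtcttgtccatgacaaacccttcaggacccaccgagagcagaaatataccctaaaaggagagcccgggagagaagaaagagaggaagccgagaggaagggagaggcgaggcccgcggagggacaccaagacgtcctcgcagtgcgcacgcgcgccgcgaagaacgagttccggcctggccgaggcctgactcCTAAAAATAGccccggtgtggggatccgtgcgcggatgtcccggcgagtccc

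Mef2c was lower with both agonists at both times. The gene (ENSMUSG00000005583) is on chromosome 13, from 83504034 to 83667080 on the plus strand. At 3.5 h Control cultures held 42.5, 50.5, 45.3, 61.8 and 43.9 CPM, VWF cultures 20.4, 21.0, 18.2, 13.5 and 16.8 CPM, and LPS cultures 25.8, 26.3, 22.3 and 16.5 CPM. Controls lay above all treated cultures, and the agonists overlapped. The decreases were 1.41 for VWF (SE 0.14, adjusted p = 8.05e-06) and 1.08 for LPS (SE 0.16, adjusted p = 9.93e-05). Mef2c passed the expression filter through control cultures, at 3.5 h only through Control replicate 4, so that the filter favoured a lower value; with no filter the values at 3.5 h were −1.37 for VWF and −1.05 for LPS. At 16 h it lay at 53.7 to 70.7 CPM in Control, 25.9 to 36.4 in VWF and 9.37 to 17.2 in LPS cultures, again without overlap. The values were −1.01 for VWF (SE 0.12, adjusted p = 0.000114) and −2.26 for LPS (SE 0.20, adjusted p = 9.32e-06). The VWF value sat at the fold threshold: it was −0.98 (adjusted p = 4.17e-05) without the 3 cultures, and under the threshold in 11 alternative fits. These included the fits without Control 16 h replicate 2 or 3 or VWF 16 h replicate 1, 2 or 4, at −0.93 to −0.99. The LPS value at 3.5 h was −0.95 without LPS 3.5 h replicate 4. The LPS effect changed by −1.16 between the times (SE 0.26, adjusted p = 0.00121), and the VWF effect by 0.43 (SE 0.19, adjusted p = 0.0937).

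Among MEF2 relatives and repressors, Mef2d fell by 1.22 with VWF and 2.19 with LPS at 3.5 h, and Hdac5, a class IIa deacetylase that represses MEF2, by 1.10 and 1.24, although for LPS it was at 10 TPM in controls alone. No other of the 6 list genes was tested at 3.5 h. At 16 h Mef2d was −0.02 with VWF (adjusted p = 0.94) and 0.47 with LPS (adjusted p = 0.00436), and Hdac7, at 10 TPM in 1 LPS culture alone, rose with LPS by 1.01 (SE 0.12, adjusted p = 7.5e-05).

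The time courses placed the factors in different orders by treatment. In controls 2 of 8 were called between the times, both lower, Cebpb and Mef2a, beside 9.11% of all genes, and 7 of 8 passed by adjusted p alone beside 41.4%. Without Control 16 h replicate 1 the count was 1, Mef2a. In VWF cultures 4 of 7 were called, Maf higher and Spi1, Cebpb and Cebpd lower, beside 21.4%, and 7 of 7 by adjusted p alone beside 68.0%. The VWF change of Spi1, −1.0045 (SE 0.11, adjusted p = 9.69e-06), sat at the fold threshold and was under it in 8 alternative fits. These included the fits without VWF 3.5 h replicate 2, 3 or 4 or VWF 16 h replicate 1, 2 or 3, at −0.95 to −0.99. In LPS cultures 4 of 6 were called, Cebpa and Maf higher and Cebpd and Mef2a lower, beside 28.1% of all genes, and the same number by adjusted p alone beside 60.9%. Cebpd and Mef2a were at 10 TPM at 3.5 h alone, so that the filter favoured their decrease, and 2 of the other 4, Cebpa and Maf, were called, beside 19.9% of genes at 10 TPM at both times. For Spi1 the LPS change was 0.07 (SE 0.10, adjusted p = 0.58).

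The test of whether an agonist's effect itself differed between the times called 4 of 8 factors for VWF, Cebpa, Maf and Mef2a upwards and Cebpd downwards, beside 13.5% of all genes. By adjusted p alone 5 of 8 passed, beside 32.4%. For LPS it called 6 of 8, Cebpa, Cebpb, Maf and Runx1 upwards and Cebpd and Mef2c downwards, beside 26.3%, and 8 of 8 by adjusted p alone beside 48.8%. The LPS count was 3 without Control 16 h replicate 1 and 3 with no filter, and the calls of Cebpb, Maf and Runx1 were lost in 8, 11 and 13 alternative fits. For Mef2a the upward change stood beside a control level that had itself fallen between the times.

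Among ETS relatives of PU.1, Fli1 fell by 1.89 with VWF and 1.56 with LPS at 3.5 h, and Etv3, a repressor, rose by 1.47 and 1.98. At 16 h Spic, which acts in red pulp macrophages and was at 10 TPM in LPS cultures alone, was 73.2 ± 9.85 CPM in LPS (SD, n = 4) and 1.94 ± 0.42 CPM in Control cultures (SD, n = 5). Of the other myeloid regulators, 10 of 14 tested, VWF raised 2 and lowered 4 at 3.5 h, beside 14.7% of all genes called, and LPS raised 4 and lowered 4, beside 24.5%. Tfec with both agonists, and Tfeb and Bhlhe41 with LPS, were at 10 TPM in only one of the groups; of those at 10 TPM in both, 5 of 9 were called with VWF and 5 of 7 with LPS, beside 10.8% and 17.6%. Tfec rose by 2.86 and 3.03, and Tfeb, a lysosomal regulator of the same family, fell by 1.78 and 3.39. Irf8, a partner of PU.1, rose by 2.72 with LPS at 3.5 h, where the VWF value was −0.56 (adjusted p = 0.00735).

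Levels were compared between the factors per length. In Control cultures at 3.5 h the mean level was 1090.0 TPM for Cebpb, 879 for Spi1, 631 for Cebpa, 125 for Mef2a, 40.6 for Maf, 20.3 for Runx1, 19.96 for Cebpd and 10.1 for Mef2c. Runx1 and Cebpd lay within their spread of each other, with SDs of 6.10 and 2.45 TPM. In LPS cultures at the same time Cebpa, at 19.4 TPM, lay below Cebpd, at 42.3 TPM.

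Genes with the pattern most like each factor were found over the 6 group means of 8866 genes, by the root mean square difference on the log2 scale after each gene's mean was removed. Nearest were Blcap for Spi1 (0.07), Plekhg3 for Cebpa (0.17), Ralgds for Cebpb (0.22), Camkk2 for Cebpd (0.30), Gm6560 for Maf (0.12), Pip5k1c for Runx1 (0.10), Gnl3 for Mef2a (0.23) and Slc1a5 for Mef2c (0.20). Plekhg3 had 51.9, 18.5 and 3.09 CPM in Control, VWF and LPS cultures at 3.5 h, a fall through the groups in the same order as Cebpa. Pkm, the pyruvate kinase gene, was among the 3 nearest to Maf, with 1432 CPM in Control cultures at 3.5 h and 4132 CPM in LPS cultures at 16 h.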

How the data were processed

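Paired-end reads were mapped by the authors to GRCm38 with STAR, and the authors deposited whole-number counts per Ensembl gene, with no normalization or filter, for 28 cultures. The annotation and the strand setting are not stated. Groups and replicate numbers came from the labels, and every column of the table matched a sample.

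TPM was computed here with GENCODE M21 exon lengths. Genes reaching 10 TPM in at least 1 culture of a comparison were tested with edgeR 4.0.16 (R 4.3.3), glmQLFit on TMM-scaled counts of the groups compared, in 11 comparisons with Benjamini-Hochberg adjustment. The filter and the thresholds (adjusted p of 0.05, log2 fold change of 1) follow the study, which used DESeq2. DESeq2 1.42.0 was an alternative, as were other normalizations, filters, 1 fit of all groups, a replicate block, no fold threshold and each culture left out. Leaving out 3 cultures together, and counting apart the genes at 10 TPM in both groups of a comparison, were added after seeing the data. Fits were tested on simulated data. The Cebpb to Cebpa ratio was tested with scipy 1.17.1. Depth was 41131209 to 77699206 counts per culture.

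The factors and lists were chosen with earlier results of these data known. Named list genes were at most the 2 with the largest called change in each direction per list and comparison, together with Cbfb, Mef2d, Csf1r and the 3 genes most like each factor. Same-numbered cultures deviated together, with a correlation over 0.1 in every pair, for the 16 h cultures of the 2 agonists alone, where 4 pairs gave values from 0.15 to 0.78 and the block changed no call. No culture was a duplicate of another over 52 within-group pairs, with a lowest chi-square per degree of freedom of 17.1. Results for some genes are not reported here.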

Additional observations from a re-analysis of the deposited data

Results flagged for a closer look

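In 54 groups of 4 or 5 values examined, 4 held a culture far from the others, and chance alone flags about 1 in 20 such groups. Cebpb was 480.5 CPM in Control 16 h replicate 5, where the others held 116 to 165 CPM. It was 2160 CPM in LPS 16 h replicate 4, beside 711 to 922 CPM, and 476 CPM in VWF 16 h replicate 4, beside 196 to 250.1 CPM. The log2 ratio of Cebpb to Cebpa was 1.95 in Control 16 h replicate 5, with the others from −0.38 to 0.20.

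The effect of an agonist differed between 3.5 h and 16 h, by the interaction test, for 10 pairs of factor and agonist. For VWF the log2 change in effect was 1.40 for Cebpa, −1.12 for Cebpd, 1.25 for Maf and 1.25 for Mef2a. For LPS it was 2.69 for Cebpa, 1.62 for Cebpb, −2.41 for Cebpd, 1.01 for Maf, 1.01 for Runx1 and −1.16 for Mef2c. Of these, Cebpb, Maf and Runx1 with LPS were no longer called in 8, 11 and 13 alternative fits, and Cebpd with VWF in 1, and without Control 16 h replicate 1 the LPS calls numbered 3 in place of 6.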

How the results depend on the processing

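Of the refitted fold changes of the factors, 1472 kept their direction and side of the threshold, 57 dropped under it, 23 passed it and 18 changed sign. Numbers of called factors were within 1.5 times the reported one in 200 settings and outside in 18. The sign changes were Runx1 with VWF at 3.5 h (DESeq2 and median-of-ratios factors −0.0057, library size −0.21, all groups in 1 fit −0.021, single cultures left out −0.077 to 0.10), Spi1 with LPS at 3.5 h (library size −0.25), Maf with LPS at 16 h (library size −0.0085), Maf between agonists at 16 h (library size 0.43, 3 cultures left out 0.14, single cultures left out −0.091 to 0.10) and Cebpb in LPS cultures over time (3 cultures left out −0.22, single cultures left out −0.22 to 0.47). The causes were not tested.

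For VWF at 16 h the factors called numbered 0 with DESeq2, median-of-ratios factors, all groups in 1 fit or the 3 cultures left out, 4 without a fold threshold, and 0 to 2 with single cultures left out. With no filter or filterByExpr the number was 1, as reported, but the factor was Cebpd, higher, in place of Mef2c. Without a fold threshold the called factors numbered 8 for LPS at 3.5 h and at 16 h, 4 between agonists at 3.5 h, 7 in controls over time and 7 in VWF cultures over time. The LPS change in effect gave 3 without a filter, and 3 to 6 with single cultures left out, the lowest without Control 16 h replicate 1. Controls over time gave 1 to 3 with single cultures left out, the lowest again without that culture. The Cebpb to Cebpa ratio at 16 h without the 3 cultures was 1.13 for VWF (adjusted p = 0.0429), 4.25 for LPS and −3.13 between agonists (both adjusted p = 0.0571, exact permutation test), and 0.67 to 1.26 for VWF with single cultures left out.

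Over the whole table, 679 to 2301 genes were called per comparison, and 2163 to 5392 without a fold threshold, 1362 to 4116 with filterByExpr and 1378 to 4542 without a filter, each over 1.5 times the reported count. Scaling by library size alone shifted the median of all genes by −0.22 (VWF at 3.5 h), −0.52 and −0.54 (LPS at 3.5 h and 16 h), 0.29 and 0.44 (between agonists) and 0.15 (VWF change in effect), and by under 0.1 in size elsewhere. It split the calls into 612 higher and 643 lower for VWF at 3.5 h (753 and 453 as reported), 708 and 2157 for LPS at 3.5 h (1047 and 963), 793 and 2253 for LPS at 16 h (1221 and 989), 751 and 340 between agonists at 3.5 h (353 and 503), 1726 and 700 at 16 h (837 and 1095), and 612 and 570 for the VWF change in effect (474 and 697). The replicate block gave 4 called factors between agonists at 16 h, as without it, and 1927 genes against 1932. For the other pairs of groups not every same-numbered correlation was over 0.1. What the numbers stand for is not stated, so that a pairing there was not settled. There the block took Spi1 in VWF cultures over time to −0.9988 and the LPS change in effect of Runx1 to 0.90, both under the fold threshold. The block left the number of called factors as reported in the other comparisons.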

Other observations

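Other transcription regulators of myeloid cells moved beside the 8 factors. Id2, an inhibitor of basic helix-loop-helix proteins, fell at 3.5 h from 1265 ± 121 CPM in Control cultures (SD, n = 5) to 365 ± 50.5 in VWF (SD, n = 5) and 264 ± 55.3 in LPS cultures (SD, n = 4), log2 fold changes of −1.77 and −2.24. Bhlhe41 fell by 2.72 with LPS, where it was at 10 TPM in controls alone, and by 1.07 with VWF at the same time. Zeb2, a zinc finger factor of myeloid cells, rose with VWF by 1.43. Bhlhe40 was the single regulator of this list of 14 that was called with VWF at 16 h, where it fell by 1.27 beside 8.71% of all genes called. With LPS at 16 h none of the 10 tested was called in edgeR's test, beside 27.6% of all genes. By adjusted p alone 6 of the 10 passed, beside 53.7% of all genes.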
